A study of Mus musculus with 21 samples.

Results

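The genes described here belong to the YAP pathway, measured in keratinocytes of mouse tail skin with and without basal cell carcinoma (BCC). They are the coactivators Yap1 and Wwtr1 (TAZ), their DNA-binding partner Tead1, the regulators Lats2, Amotl2 and Ajuba, and the target genes Axl, Ccn1 (formerly Cyr61) and Ccn2 (formerly Ctgf). The members were taken by gene symbol, and 9 of the 10 symbols sought have a row among the 23713 genes of the count table. Ankrd1, the tenth, was not analysed here. All 9 genes passed the filter on low counts in every comparison.

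RNA was measured by bulk sequencing of polyA RNA in 3 mouse models of BCC, each with 4 libraries from tumour-bearing mice (BCC) and 3 from the model's own tumour-free mice (Con), 21 in all. In the model named SmoM2, which carries the name of an activated form of the Hedgehog receptor protein Smoothened, tissue was collected 29 days after tumours were induced. In Gnas-eKO, named for a knockout of Gnas, the gene of the stimulatory G protein alpha subunit, collection was at 42 days. In PKI, named for an inhibitor of protein kinase A, collection was at 57 days. The Cre or promoter used, the PKI construct, the genotype of the Con mice and the age of the mice are not given in the sources used here. Each model was 1 batch (A, B and C), so model, batch and day cannot be told apart; every comparison of BCC with Con lies inside 1 batch. In the column headers the animals behind SmoM2 BCC and SmoM2 Con bear different name prefixes, whose meaning is not stated.

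Hippo signalling restrains YAP and TAZ, a pair of coactivators without a DNA-binding domain of their own. The kinases Lats1 and Lats2 phosphorylate them, which keeps them in the cytoplasm, and unphosphorylated YAP and TAZ enter the nucleus and bind TEAD factors to switch on genes such as Ccn1, Ccn2, Amotl2, Lats2 and Axl. In epidermis the pathway is known for its part in basal cell proliferation and in the response to mechanical force. RNA levels do not measure where YAP protein lies or whether it is phosphorylated.

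TEAD factors bind the short sequence GGAATG, so the promoter windows of the members are shown with this match in capitals. Of the 9 members, 7 have an entry in the RefSeq promoter table (build GRCm38.p6, 250 bases before to 50 bases after each gene start), and Tead1 and Ccn2 have none. All 7 held at least 1 match to GGAATG or, on the other strand, CATTCC. Among all 27025 genes of the table, 16.6% held a match, as did 14.7% of its 32851 windows. The stretches around the matches are printed on the strand of each gene, at chr9:8004705-8004764 (minus strand) for Yap1, chr3:57576014-57576073 (minus) for Wwtr1, chr14:57746102-57746131 (minus) for Lats2, chr9:102717712-102717771 (plus) for Amotl2, chr14:54577804-54577863 (minus) for Ajuba, chr7:25788924-25788983 (minus) for Axl and chr3:145650056-145650115 (minus) for Ccn1.
Yap1: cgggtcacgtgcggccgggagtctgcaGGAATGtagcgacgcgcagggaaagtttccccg
Wwtr1: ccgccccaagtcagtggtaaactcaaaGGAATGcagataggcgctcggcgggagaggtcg
Lats2: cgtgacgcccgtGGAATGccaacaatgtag
Amotl2: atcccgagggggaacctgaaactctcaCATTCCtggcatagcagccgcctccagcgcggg
Ajuba: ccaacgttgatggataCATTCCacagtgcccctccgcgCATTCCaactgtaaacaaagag
Axl: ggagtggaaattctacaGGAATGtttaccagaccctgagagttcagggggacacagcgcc
Ccn1: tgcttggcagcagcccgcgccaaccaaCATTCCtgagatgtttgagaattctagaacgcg

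Counted from the RefSeq start of the printed window, the match began at -141 in Yap1, -136 in Wwtr1, 4 in Lats2, -65 in Amotl2, -233 in Axl and -103 in Ccn1, and Ajuba held 2 matches, at -186 and -164. That start lies 12265 bases inside the annotated span of Lats2 given with its levels, and 1132 bases inside that of Amotl2; for the other 5 genes the starts are at most 103 bases apart. A second Lats2 window in the table held no match. None of 4 other motifs, searched on both strands, matched a window of these genes. They were the AP-1 motif TGANTCA (in 7.81% of all windows), the GLI motif GACCACCCA (0.253%), the CRE TGACGTCA (1.79%) and the CArG box (1.63%). A match is a description of letters, and binding was not measured in these libraries. Of the 22 other Hippo pathway genes with an entry, 9 held the TEAD match, as did 2 of 10 further target genes and 0 of 9 immediate early genes.

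Library totals ranged from 16645858 to 22251132 counts, at which 3 counts are at most 0.189 CPM (counts scaled to library size, edgeR's CPM), and no member was below 5.38 CPM in any library. All 10 keratinocyte markers were detected, and their sum was lower in BCC than in every Con library in SmoM2 (41297 to 56488 against 58731 to 75675 CPM) and Gnas-eKO (32223 to 53682 against 60553 to 71795 CPM), with overlap in PKI (48064 to 76085 against 55123 to 73281 CPM). Gnas, the targeted gene of Gnas-eKO, was at 178, 174 and 172 CPM in its Con and 115, 89.5, 51.1 and 65.6 CPM in its BCC libraries. Of the tumour libraries, Gnas-eKO BCC library 2 lay at -20.4 on the first principal component, between the Con libraries (-57.2 to -40.4) and the other 11 BCC libraries (32.4 to 59.4), and its level of the Hedgehog target Gli1 was 9.65 CPM against 153 to 281 CPM in the other Gnas-eKO BCC libraries. Other Hedgehog pathway genes were well above Con in it, Ptch1 at 270.5 CPM (at most 39.0 CPM in Con) and Gli2 at 90.1 CPM (at most 21.4 CPM in Con). Results of the members in Gnas-eKO are therefore given with and without it. Gnas-eKO BCC library 3 also differed from libraries 1 and 4, by a chi-square per degree of freedom of 138 and 111, where library 2 differed from them by 78.4 and 82.6. Without library 3, 0 members were called in Gnas-eKO (1.81% of all genes).

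In SmoM2, tumours held more RNA of Ccn2, Axl, Lats2, Tead1 and Ajuba and less of Amotl2 than control epidermis, with Ccn2 up 2.43-fold. In PKI, Ccn2 moved the other way, 2.97-fold lower in tumours, and Amotl2 and Yap1 were also lower. The calls of Amotl2 in SmoM2 and Yap1 in PKI were lost in 5 and 6 of the 7 fits with 1 library left out. In Gnas-eKO no member passed the test. In bulk RNA, fewer cells of a type and less RNA per cell cannot be told apart.

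By edgeR's quasi-likelihood test with Benjamini-Hochberg adjustment over all genes tested (called at an adjusted p under 0.05), 6 of 9 members were called in SmoM2, against 29.7% of all genes. Of these, 5 were higher in BCC, against 16.2% of genes, and 1 was lower, against 13.5%. In Gnas-eKO 0 of 9 were called, against 1.63% of genes (1.46% higher and 0.165% lower). There 4 members had an unadjusted p under 0.05 and DESeq2 called 0, against 9.35% of genes. For counts at an unadjusted p under 0.05, here and below, the share of all genes is not given. In PKI 3 of 9 were called, against 34.5% of genes, all 3 lower, against 15.8% of genes. None was called higher in PKI, against 18.7% of genes. The 5 members with an unadjusted p under 0.05 were all lower in BCC there. So were the 4 that DESeq2 called, against 37.2% of genes called by it in either direction. BCC and Con libraries did not overlap for 5 members in SmoM2 (38.8% of genes), 2 members in Gnas-eKO (19.7%) and 5 members in PKI (43.2%). The share of members called in either direction was above the background in SmoM2 and close to it in PKI. The median log2 fold change over the members was 0.32 for SmoM2, 0.42 for Gnas-eKO and -0.21 for PKI, where the medians of all genes were 0.00054, 0.020 and -0.0012.

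**Figure D1:**
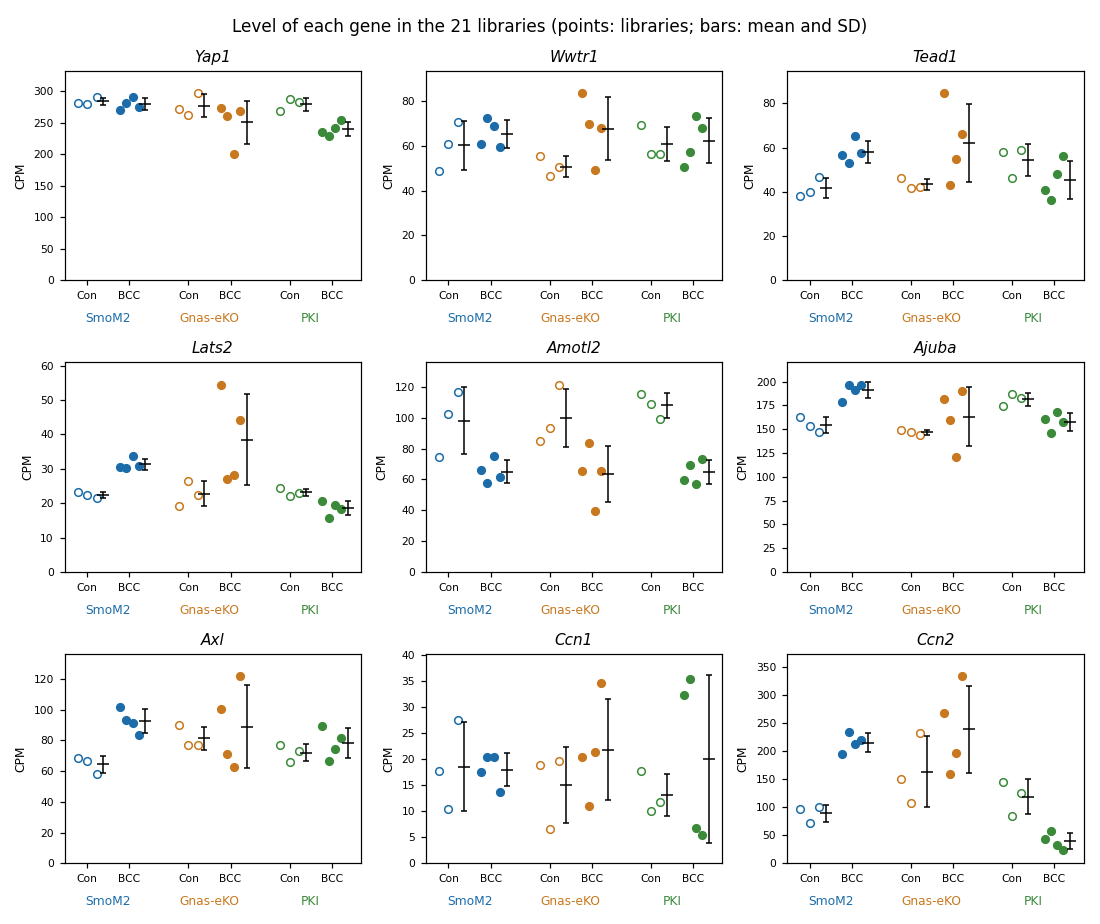
Level of each of the 9 genes in CPM (y axis, from 0) in the 21 libraries, by model and group; open points are Con, filled points BCC, and the bars give the mean and SD. Ccn2 separates BCC from Con upward in SmoM2 (194 to 234 against 71.5 to 100.0 CPM) and downward in PKI (24.2 to 56.9 against 84.4 to 145 CPM).

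**Figure D2:**
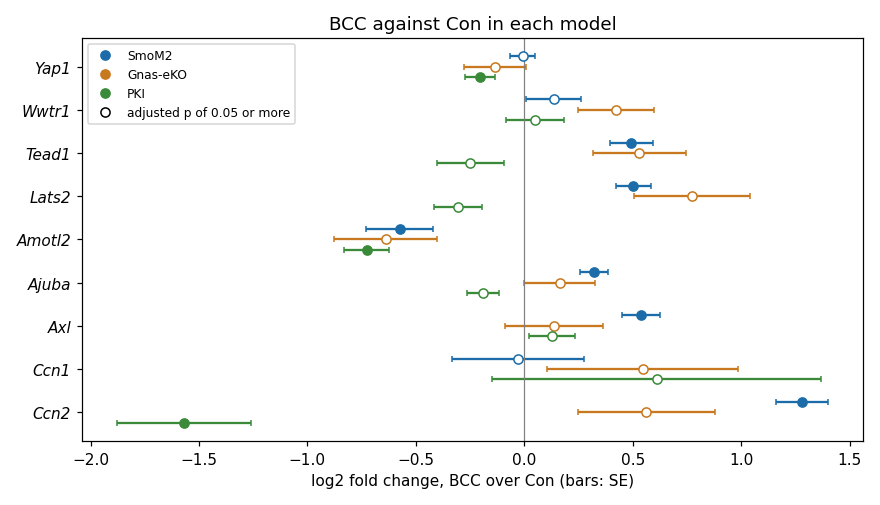
log2 fold change of BCC over Con (x axis) for each gene in the 3 models, with bars of 1 SE; filled points were called and open points were not. Amotl2 lies to the left of 0 in all 3 models, while Ccn2 lies at 1.28 in SmoM2 and -1.57 in PKI.

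Of the upstream regulators, Lats2 encodes the kinase that phosphorylates YAP and TAZ and is itself a YAP target (chr14:57689662-57758388, minus strand, GENCODE M21 on GRCm38). In SmoM2 its level was 23.2, 22.4 and 21.4 CPM in Con and 30.5, 30.3, 33.8 and 30.9 CPM in BCC, so every BCC library was above every Con library. The log2 fold change was 0.50 (SE 0.0813, adjusted p = 0.00139). In Gnas-eKO Lats2 was at 19.3, 26.5 and 22.4 CPM in Con and 54.4, 27.0, 28.1 and 44.2 CPM in BCC; BCC libraries 1 and 4 were far above Con and libraries 2 and 3 only just. The log2 fold change there was 0.77 (SE 0.267, adjusted p = 0.164), and 0.91 (adjusted p = 0.0528) without BCC library 2. In PKI it was at 24.3, 22.0 and 23.1 CPM in Con and 20.6, 15.8, 19.6 and 18.2 CPM in BCC, with every BCC library below Con, at a log2 fold change of -0.31 (SE 0.109, adjusted p = 0.0559). Without PKI BCC library 1 the adjusted p was 0.0384. Exons of a second annotated gene on the same strand, Gm49361, overlap Lats2, and this gene was above 0 CPM in 2 of 21 libraries.

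Ajuba encodes a LIM-domain scaffold protein that binds LATS kinases and holds them back from YAP (chr14:54567472-54577558, minus strand). In SmoM2 it was at 163, 153 and 147 CPM in Con and 179, 197, 191 and 197 CPM in BCC, without overlap, at a log2 fold change of 0.32 (SE 0.0652, adjusted p = 0.00504). In Gnas-eKO Con it was at 149, 147 and 144 CPM, and BCC ran from below to above that, at 182, 160.0, 121 and 190.0 CPM. There the log2 fold change was 0.16 (SE 0.163, adjusted p = 0.633), and 0.18 without BCC library 2. PKI libraries held 174, 187 and 183 CPM in Con and 160.2, 146, 168 and 157 CPM in BCC, all lower, at a log2 fold change of -0.19 (SE 0.0726, adjusted p = 0.0712); DESeq2 gave an adjusted p of 0.0415.

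Amotl2 encodes an angiomotin-family protein that binds YAP and restrains it, and it is a YAP target as well (chr9:102716672-102733418, plus strand). Its mean was lower in BCC than in Con in all 3 models. In SmoM2 it was at 74.3, 102 and 117 CPM in Con and 66.4, 57.4, 74.9 and 61.5 CPM in BCC; BCC library 3 was just above Con library 1, so the groups overlapped. The log2 fold change was -0.57 (SE 0.153, adjusted p = 0.0224), and the call was lost in 5 of the 7 fits with 1 library left out (without Con library 2 or 3, or BCC library 1, 2 or 4), with adjusted p up to 0.0768. Gnas-eKO libraries held 84.9, 93.1 and 121 CPM in Con and 65.3, 83.8, 39.6 and 65.7 CPM in BCC, without overlap, at a log2 fold change of -0.64 (SE 0.236, adjusted p = 0.189). Without BCC library 2 this was -0.79 (adjusted p = 0.0637). PKI libraries held 116, 109 and 99.3 CPM in Con and 59.3, 69.2, 57.0 and 73.2 CPM in BCC, a wide gap, at a log2 fold change of -0.73 (SE 0.103, adjusted p = 0.00103). That call was kept in all 7 fits with 1 library left out.

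Yap1, the coactivator that the pathway is named for (chr9:7931999-8004596, minus strand), varied little, between 199.99 and 297 CPM over all libraries. The antisense gene Gm20416, whose exons overlap Yap1, was not analysed here. In SmoM2 Yap1 was at 281, 279 and 291 CPM in Con and 270.0, 281, 291 and 275 CPM in BCC, with full overlap (log2 fold change -0.0075, SE 0.0592). In Gnas-eKO it was at 272, 262 and 297 CPM in Con and 273, 259.9, 199.99 and 269 CPM in BCC; BCC library 3 was the lowest of all 21. This gave a log2 fold change of -0.14 (SE 0.143, adjusted p = 0.657), and -0.15 without BCC library 2. In PKI it was at 268, 287 and 283 CPM in Con and 235, 229.5, 242 and 254 CPM in BCC, every BCC library lower, at a log2 fold change of -0.21 (SE 0.0692, adjusted p = 0.0444). That is a change of 1.15-fold, and the call was lost in 6 of the 7 fits with 1 library left out (all but the fit without BCC library 4), with adjusted p up to 0.141, and also without the filter on low counts (0.0735) and in a joint fit of all 21 libraries (0.0800).

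Wwtr1, which encodes TAZ (chr3:57455649-57575910, minus strand), was not called in any model. In SmoM2 it was at 48.7, 60.9 and 70.5 CPM in Con and 60.8, 72.1, 68.8 and 59.2 CPM in BCC, and in PKI at 69.3, 56.3 and 56.3 CPM in Con and 50.6, 57.2, 73.2 and 68.0 CPM in BCC, with overlap in both. In Gnas-eKO it was at 55.3, 46.3 and 50.4 CPM in Con and 83.3, 69.5, 49.3 and 68.0 CPM in BCC, where 3 of 4 BCC libraries were above all Con libraries. The log2 fold changes were 0.14 (SE 0.126) in SmoM2, 0.42 (SE 0.175, adjusted p = 0.23) in Gnas-eKO and 0.05 (SE 0.134) in PKI. Without BCC library 2 the Gnas-eKO value was 0.41 (adjusted p = 0.228).

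Tead1 encodes the transcription factor through which YAP and TAZ reach DNA (chr7:112679318-112906807, plus strand). SmoM2 libraries held 38.0, 40.1 and 46.9 CPM in Con and 56.4, 53.1, 65.1 and 57.7 CPM in BCC, without overlap, at a log2 fold change of 0.49 (SE 0.0991, adjusted p = 0.00463). In Gnas-eKO it was at 46.3, 41.7 and 42.2 CPM in Con and 84.5, 43.2, 54.9 and 66.1 CPM in BCC, and BCC library 2 was the one that fell among the Con libraries. This gave a log2 fold change of 0.53 (SE 0.213, adjusted p = 0.219); without that library it was 0.67, with an adjusted p of 0.0418. In PKI it was at 57.9, 46.0 and 59.0 CPM in Con and 40.8, 36.4, 47.9 and 56.4 CPM in BCC, with overlap, at a log2 fold change of -0.25 (SE 0.153, adjusted p = 0.239). In the joint fit of 21 libraries, which shares 1 estimate of the spread among the models, the SmoM2 calls of Tead1 (adjusted p = 0.0579), Lats2 (0.0615) and Ajuba (0.0520) were lost. That fit called 22.7% of all genes in SmoM2, against 29.7% in the fit of the model's own libraries.

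Of the 3 target genes Axl, Ccn1 and Ccn2, the last had the largest fold change in SmoM2 and PKI. It encodes connective tissue growth factor, a secreted matricellular protein and a standard readout of YAP activity (chr10:24595442-24598683, plus strand). In SmoM2 Ccn2 was at 96.4, 71.5 and 100.0 CPM in Con and 194, 234, 212 and 219 CPM in BCC. In PKI it was at 145, 84.4 and 126 CPM in Con and 43.9, 56.9, 33.0 and 24.2 CPM in BCC. The groups were well apart in both models, in opposite directions.

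Ccn2 had a log2 fold change of 1.28 (SE 0.120, adjusted p = 6.5e-05) in SmoM2, above that of 93.3% of genes tested, and -1.57 (SE 0.307, adjusted p = 0.0077) in PKI, where 2.0% of genes had a lower value. Both calls were kept in all 7 fits with 1 library left out. In Gnas-eKO it was at 150.5, 107 and 232 CPM in Con and 267, 158, 197 and 333 CPM in BCC; the groups overlapped, with Con library 3 above BCC libraries 2 and 3. The log2 fold change there was 0.56 (SE 0.316, adjusted p = 0.368), and 0.72 (adjusted p = 0.179) without BCC library 2. The Con means of Ccn2 were 89.3 ± 15.5 CPM in the SmoM2 batch, 163 ± 63.0 CPM in the Gnas-eKO batch and 118 ± 31.1 CPM in the PKI batch (SD, n = 3 each). Exons of the antisense gene Gm15270 overlap Ccn2; it was at 0.0890 to 2.27 CPM, and since counting by strand is not stated, reads in the overlap cannot be told apart.

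Axl encodes a receptor tyrosine kinase of the TAM family and is a YAP target (chr7:25757273-25788705, minus strand). SmoM2 libraries held 68.6, 66.8 and 57.9 CPM in Con and 102, 93.5, 91.4 and 83.7 CPM in BCC, without overlap, at a log2 fold change of 0.54 (SE 0.0881, adjusted p = 0.00149). Gnas-eKO libraries held 90.2, 77.3 and 77.0 CPM in Con and 100.4, 71.4, 62.5 and 122 CPM in BCC, with BCC libraries both above and below Con (log2 fold change 0.14, SE 0.225). PKI libraries held 77.1, 66.0 and 73.0 CPM in Con and 89.6, 66.8, 74.4 and 81.8 CPM in BCC, with overlap (log2 fold change 0.13, SE 0.107). Without BCC library 2 the Gnas-eKO value was 0.24 (adjusted p = 0.574).

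In SmoM2 the summed fibroblast markers rose with Ccn2 and Axl, which fibroblasts also express, and 1 gene, Dcn, made up most of that sum in BCC. The 8 fibroblast markers summed to 136 to 163 CPM in SmoM2 Con and 429 to 581 CPM in BCC, and 3 of the 8 were called higher (16.2% of all genes) and 1 lower (13.5%). Dcn, a matrix proteoglycan, went from 21.0 ± 7.95 (SD, n = 3) to 440 ± 70.5 CPM (SD, n = 4), while the other 7, of which Thy1 was the most abundant, summed to 118 to 141 CPM in Con and 63.3 to 82.3 CPM in BCC. Of the 8 log2 fold changes 6 were positive, with a median of 1.45, and Col1a2 (2.94) and Pdgfrb, at most 0.926 CPM in any SmoM2 library, were called higher beside Dcn. The collagen gene Col1a1 was at 1.56 and 1.97 CPM in Con and BCC on average (log2 fold change 0.36, adjusted p = 0.575) and Col3a1 had a log2 fold change of -0.071 (adjusted p = 0.955). Thy1, which was called lower, was at 121 and 50.9 CPM. Dcn was singled out after its values were seen. In PKI the 8 markers summed to 36.8 to 84.9 CPM in Con and 132 to 177 CPM in BCC, with 3 of the 7 tested called higher (18.7% of genes), while Ccn2 was lower there. In Gnas-eKO the 8 summed to 144 to 163 CPM in Con and 125 to 676 CPM in BCC, highest in BCC library 2, where Dcn made up 569 CPM. The other 7, again with Thy1 the most abundant in Con, summed to 133 to 144 CPM in Con and 69.0 to 113.5 CPM in BCC. In that model 1 of 8 was called higher (1.46% of genes), 7 had an unadjusted p under 0.05 and the median log2 fold change was 2.78, with 7 of 8 positive. The 10 leukocyte markers summed to 53.7 to 136 CPM in PKI Con and 309 to 611 CPM in PKI BCC, with 8 of 10 called higher (18.7% of genes), to 99.96 to 126 against 66.8 to 142 CPM in SmoM2, and to 121 to 165 against 107 to 324 CPM in Gnas-eKO. The 6 endothelial markers were low but did not overlap between Con and BCC in SmoM2 (1.66 to 3.25 against 3.98 to 6.23 CPM) and PKI (1.77 to 4.31 against 5.30 to 6.88 CPM), and they overlapped in Gnas-eKO (1.88 to 3.63 against 2.68 to 6.51 CPM). Emcn was at 0 in SmoM2 Con. The 4 muscle markers with a row summed to 0.442 to 1.32 CPM in PKI Con and 3.35 to 6.21 CPM in PKI BCC, and to 0.865 to 3.48 CPM in the other models, with overlap there. The 6 melanocyte markers summed to 156 to 204 CPM in PKI Con and 73.5 to 119.5 CPM in PKI BCC, with 4 of 6 called lower (15.8% of genes). In SmoM2 they summed to 118 to 208 CPM in Con and 111 to 162 CPM in BCC, with 2 of 6 called lower (13.5% of genes), and in Gnas-eKO to 114 to 175 and 120.5 to 201 CPM, with 0 of 6 called by edgeR and 0 with an unadjusted p under 0.05.

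The sum of the keratinocyte markers also moved with several members. In SmoM2 6 of its 10 genes were called lower in BCC (13.5% of all genes) and 2 higher (16.2%), in PKI 3 lower (15.8%) and 2 higher (18.7%), and in Gnas-eKO 0 by edgeR, with 3 at an unadjusted p under 0.05. Over the 21 libraries the log2 sum ran against log2 CPM of Lats2 (Pearson r of -0.81), Tead1 (-0.66), Axl (-0.63) and Ccn2 (-0.59) and with that of Amotl2 (0.56), in libraries that share batches and tumour state. Among the leukocyte, fibroblast, endothelial and muscle sums, the values beyond 0.5 in size were those of Yap1 with leukocyte (-0.56) and muscle (-0.68), Amotl2 with endothelial (-0.57) and muscle (-0.67), Axl with fibroblast (0.51) and endothelial (0.54) and Ccn2 with leukocyte markers (-0.52). The part of any of these cells in the changes of the members was not tested.

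Ccn1, like Ccn2 a secreted matricellular protein and YAP target, was not called in any model (chr3:145646976-145649981, minus strand). SmoM2 libraries held 17.8, 10.4 and 27.5 CPM in Con and 17.5, 20.4, 20.4 and 13.7 CPM in BCC, with overlap. Gnas-eKO libraries held 18.9, 6.70 and 19.7 CPM in Con and 20.4, 11.0, 21.5 and 34.6 CPM in BCC, again with overlap. PKI libraries held 17.7, 10.0 and 11.9 CPM in Con and 32.4, 35.5, 6.90 and 5.38 CPM in BCC, where libraries 1 and 2 were above all Con libraries and libraries 3 and 4 below them. The log2 fold changes were -0.029 (SE 0.306), 0.55 (SE 0.441) and 0.61 (SE 0.760) in SmoM2, Gnas-eKO and PKI, and 0.77 in Gnas-eKO without BCC library 2.

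The split within PKI BCC was also seen in the immediate early genes, which respond within minutes to growth factors or stress. The summed level of 12 such genes was 2625 and 2889 CPM in PKI BCC libraries 1 and 2 and 1731 and 1693 CPM in libraries 3 and 4, against 1673 to 1977 CPM in PKI Con. Klf4, a transcription factor of epidermal differentiation, made up 1023 to 1232 CPM of that sum in PKI Con and 606 to 850 CPM in PKI BCC. The other 11 genes summed to 621 to 939 CPM in PKI Con and to 2020, 2039, 961 and 915 CPM in PKI BCC libraries 1 to 4, so libraries 1 and 2 were far above Con, library 3 just above and library 4 within it. Klf4 was singled out after its values were seen. Over the 21 libraries log2 CPM of Ccn1 followed the log2 sum of the 12 genes with a Pearson r of 0.75, while Ccn2 did not (r of 0.012). Without Klf4 in the sum the values were 0.81 and 0.13. The libraries share batches and preparation, so these values are descriptions. PKI Con library 1 was also the highest of its group in Ccn1 (17.7 CPM) and in the other 11 genes (939 CPM). Its deviations from the group mean over all genes tested correlated at 0.28 and 0.23 with those of BCC libraries 1 and 2. With BCC libraries 3 and 4 they correlated at -0.25 and -0.28, and PKI Con libraries 2 and 3 showed the opposite signs. In the column headers PKI Con library 1 and BCC libraries 1 and 2 bear consecutive animal numbers. The cause of the split was not tested. Ccn2 was low in all 4 of those PKI BCC libraries. The part of the immediate early response in the Ccn1 levels was not tested.

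**Figure D3:**
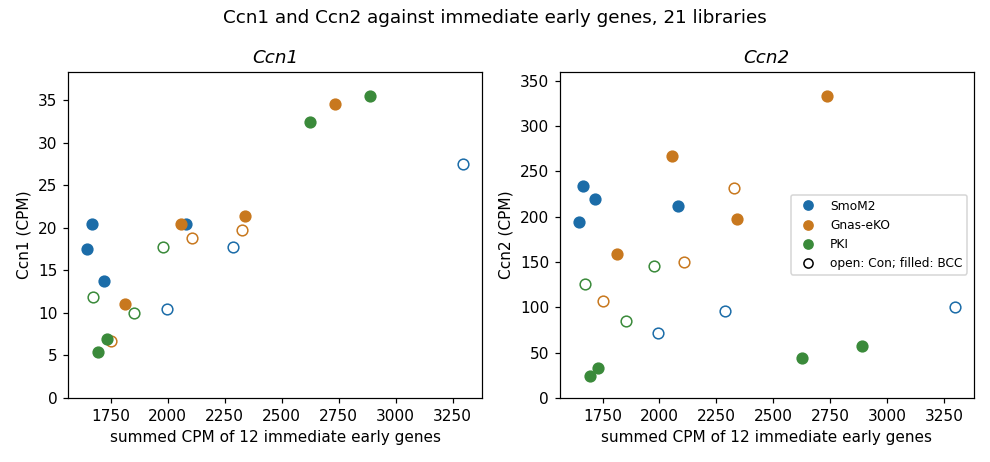
Ccn1 (left) and Ccn2 (right) in CPM against the summed CPM of 12 immediate early genes, 1 point per library, coloured by model, open for Con and filled for BCC. Ccn1 rises with the sum (r of 0.75 over 21 libraries), and PKI BCC libraries 1 and 2 (32.4 and 35.5 CPM) sit apart from 3 and 4 (6.90 and 5.38 CPM). Ccn2 shows no such relation (r of 0.012). Both r were computed on log2 values, while the axes are linear.

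Per kilobase of annotated exon, which allows levels to be compared between genes, Ajuba was the highest member in SmoM2 Con at 42.4 ± 2.30 CPM per kb, followed by Ccn2 at 31.2 ± 5.43 and Yap1 at 30.6 ± 0.664 (SD, n = 3), a pair within their spread. Amotl2 (15.6 ± 3.45), Axl (12.8 ± 1.14), Wwtr1 (12.6 ± 2.29) and Ccn1 (9.19 ± 4.23) came next and were within their spread of their neighbours. Lats2 (3.21 ± 0.135) and Tead1 (3.07 ± 0.342) were lowest and did not differ beyond their spread. In SmoM2 BCC, Ccn2 led at 75.0 ± 5.79 CPM per kb, and in PKI BCC it stood at 13.8 ± 4.93 (SD, n = 4), below Ajuba at 43.3 ± 2.54 and Yap1 at 25.9 ± 1.16.

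Whether the models differed in these changes was tested as an interaction in edgeR over the 14 libraries of each pair of models; the tests against SmoM2 and against Gnas-eKO share the PKI libraries. Between PKI and SmoM2, 4 of 9 members were called, all with a lower effect in PKI, against 12.3% of genes. None was called with a higher effect, against 12.6% of genes, and the 6 members with an unadjusted p under 0.05 and the 6 that DESeq2 called were all lower. The log2 difference was -2.85 (SE 0.362, adjusted p = 0.000254) for Ccn2, a 7.21-fold difference. It was -0.81 (SE 0.130, adjusted p = 0.000629) for Lats2. Tead1 followed with -0.74 (SE 0.195, adjusted p = 0.0132), then Ajuba with -0.51 (SE 0.0918, adjusted p = 0.00139). All 4 calls were kept in the 14 fits with 1 library left out. Axl had a difference of -0.41 (SE 0.144, adjusted p = 0.0507), and DESeq2 gave it an adjusted p of 0.0362.

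Between PKI and Gnas-eKO, 2 of 9 members were called, both with a lower effect in PKI, against 4.57% of genes. None was called with a higher effect, against 4.49%, and the 3 members with an unadjusted p under 0.05 and the 2 that DESeq2 called were all lower. The log2 difference was -2.13 (SE 0.477, adjusted p = 0.0173) for Ccn2, with an adjusted p of 0.0527 without Gnas-eKO Con library 2. For Lats2 it was -1.08 (SE 0.301, adjusted p = 0.0403), and this call was lost in 12 of 14 fits with 1 library left out, all but those without Gnas-eKO BCC library 2 or 3, with adjusted p up to 0.108. Without Gnas-eKO BCC library 2 the Ccn2 difference was -2.28 and that of Lats2 -1.21, and Tead1 was also called, at -0.92 (adjusted p = 0.0242). Without Gnas-eKO BCC library 3, Ajuba was called, at -0.47 (adjusted p = 0.0115). Between Gnas-eKO and SmoM2, 0 of 9 members were called, against 0.175% of genes, 0 had an unadjusted p under 0.05 and DESeq2 called 0; for Ccn2 the difference was -0.71 (SE 0.364). Without Gnas-eKO BCC library 2, 0 members were called there as well, and the Ccn2 difference was -0.57 (adjusted p = 0.522).

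The other genes of the pathway were read from 2 fixed lists. Of 29 Hippo pathway genes, 27 were tested. In SmoM2 4 were higher and 3 lower in BCC, 7 of 27 against 29.7% of all genes. In PKI 2 were higher and 5 lower, also 7 of 27, against 34.5%. In Gnas-eKO 1 was higher and 0 lower, against 1.63%. The SmoM2 count ran from 4 (without Con library 2 or BCC library 1) to 10 (without Con library 1) with 1 library left out. Those fits called 21.5%, 24.4% and 27.5% of all genes. The list's median log2 fold change was 0.0098 (SmoM2), -0.011 (Gnas-eKO) and -0.097 (PKI). Fat4, an atypical cadherin upstream of the pathway, rose on the log2 scale in SmoM2 by 2.22 (SE 0.523, adjusted p = 0.0106) and in Gnas-eKO by 1.83 (SE 0.343, adjusted p = 0.0445), from means of 0.469 to 2.22 CPM and 0.595 to 2.11 CPM. The Gnas-eKO call of Fat4 was lost in 5 of the 7 fits with 1 library left out (all but those without BCC library 2 or 3), with adjusted p up to 0.209. Tead2, a second TEAD factor, rose in SmoM2 by 0.91 (SE 0.184, adjusted p = 0.00488) and in PKI by 1.68 (SE 0.217, adjusted p = 0.000676). Amot, an angiomotin, rose in SmoM2 by 0.94, as did the TEAD cofactor Vgll4 by 0.49. The call of Amot was lost in 3 of 7 fits with 1 library left out (without Con library 2 or BCC library 1 or 2), with adjusted p up to 0.0814. In PKI, the TEAD cofactor Vgll3 (-1.23, SE 0.158, adjusted p = 0.000666), the phosphatase Ptpn14, which binds YAP (-0.92, SE 0.162, adjusted p = 0.00326), and the LIM protein Limd1 (log2 fold change -0.48) fell.

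Of the 22 genes on a list of YAP and TAZ targets, 16 are not members of the set above. Of these, in SmoM2 5 were higher (16.2% of all genes) and 5 lower (13.5%) of 15 tested. In Gnas-eKO 2 were higher (1.46% of genes) and 1 lower (0.165%) of 15. In PKI 1 was higher (18.7% of genes) and 9 lower (15.8%) of 16. The 3 models gave them a median log2 fold change of -0.15 (SmoM2), -0.19 (Gnas-eKO) and -0.47 (PKI). The calls in SmoM2 were split evenly between higher and lower, and those in PKI were mostly lower. Arhgef17 was higher in all 3 models, with log2 fold changes of 2.10 (SE 0.120, adjusted p = 2.92e-06) in SmoM2, 1.97 (SE 0.331, adjusted p = 0.0339) in Gnas-eKO and 1.86 (SE 0.243, adjusted p = 0.00106) in PKI. Its Gnas-eKO call was lost in 6 of the 7 fits with 1 library left out, with adjusted p up to 0.182, and was kept without BCC library 2. Rbms3, an RNA-binding protein, was higher in SmoM2 (1.75, SE 0.234, adjusted p = 0.000461) and lower in PKI (-1.26, SE 0.296, adjusted p = 0.0107), as Ccn2 was, with an interaction of -3.01 (SE 0.406, adjusted p = 0.000179). F3, tissue factor, was lower in SmoM2 (-2.26, SE 0.343, adjusted p = 0.00388) and was also called lower in PKI (adjusted p = 0.00251). Tgfb2, a TGF-beta ligand, was higher in SmoM2 by 1.82 (SE 0.182, adjusted p = 0.000167). Ccdc80, a secreted matrix protein, fell in PKI (-1.76, SE 0.214, adjusted p = 0.000556) and was also called lower in SmoM2 (adjusted p = 0.000159). In Gnas-eKO, Nt5e, the ecto-enzyme CD73, rose (1.23, SE 0.222, adjusted p = 0.0403) and Dock5, a Rac activator, fell (-1.07, SE 0.209, adjusted p = 0.0485). These calls of Nt5e and Dock5 were lost in 6 and 5 of the 7 fits with 1 library left out, with adjusted p up to 0.186 and 0.207. Nt5e was also called higher in SmoM2 (adjusted p = 0.0233, lost in 2 of 7 such fits) and lower in PKI (0.00306, lost in 0 of 7). The interaction of PKI against SmoM2 was called for it (adjusted p = 0.000841). Dock5 was also called lower in SmoM2 (0.000904, lost in 0 of 7) and PKI (0.0270, lost in 3 of 7). Of the full target list and the Hippo list, 3 and 1 genes were called in Gnas-eKO with all libraries (1.63% of all genes) and 7 and 4 without BCC library 2 (11.8% of all genes). Without Con library 1, 2 or 3 or BCC library 1 or 4, edgeR called 0 of both lists. Those fits called only 0, 0, 4, 38 and 59 genes in all (at most 0.367%), so 0 says little about the lists. The calls of Fat4, Arhgef17, Nt5e and Dock5 were lost in those fits along with most calls of all genes. With all libraries 11 and 4 genes of the lists had an unadjusted p under 0.05 and DESeq2 called 6 and 3 (9.35% of all genes).

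**Figure D4:**
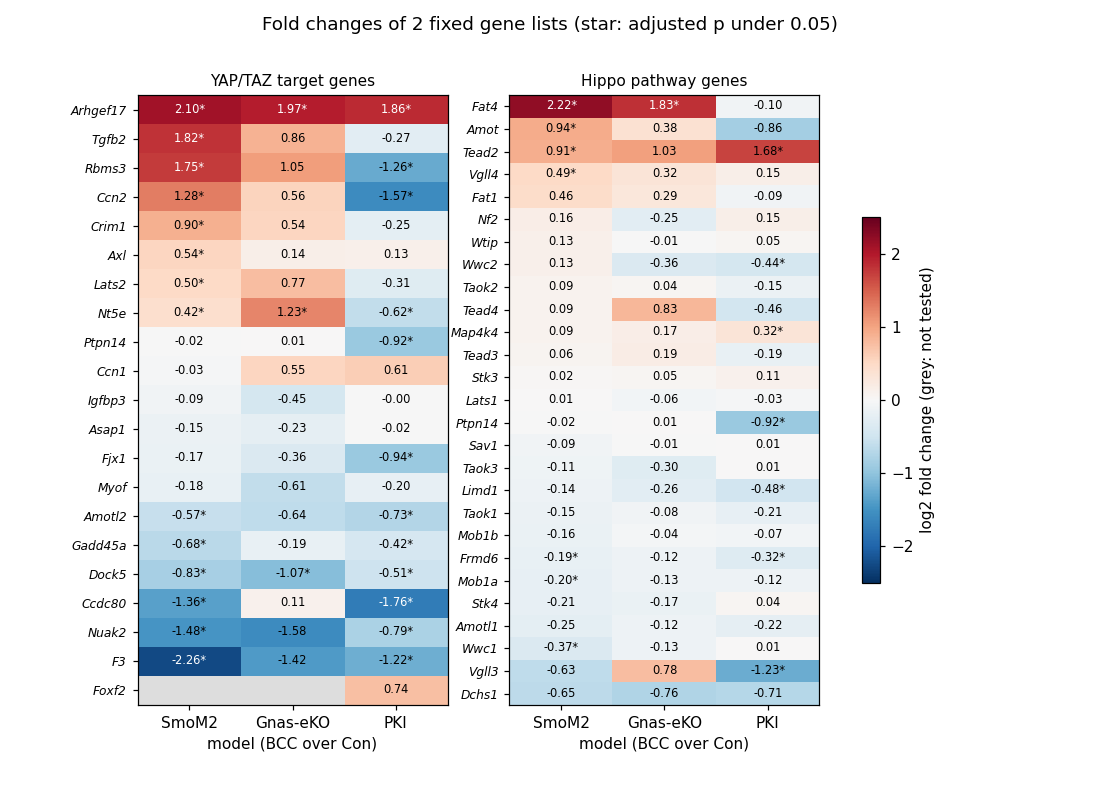
log2 fold change of BCC over Con (colour and number) of the YAP and TAZ target list (left) and the Hippo pathway list (right), 1 row per gene ordered by the SmoM2 value and 1 column per model; stars mark calls and grey marks genes not tested. Arhgef17 has positive values in all 3 models, while Ccn2, Rbms3 and Nt5e were called higher in SmoM2 and lower in PKI.

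Over the 21 libraries, the highest correlations of log2 CPM among the members were those of Tead1 with Lats2 (Pearson r 0.76), Lats2 with Ccn2 (0.76) and Yap1 with Amotl2 (0.68). The lowest was that of Amotl2 with Axl (-0.31). Among all genes above the same minimum level, the gene most like Ccn2 was Zrsr1 (r 0.93), that most like Lats2 was Naaladl2 (0.93), and that most like Amotl2 was Copg2 (0.92). Ccn1 was most like Fos (0.81), Ppp1r15a (0.81) and Fosb (0.80), which belong to the stress and immediate early genes. Yap1 was most like Cyth3 (0.90), Tead1 most like Gab2 (0.87), Ajuba most like Sh3pxd2b (0.89), Wwtr1 most like Frs2 (0.83) and Axl most like Ptpn1 (0.82). The libraries share batches and differ in tumour state, so these values describe the libraries only.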

How the data were processed

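Per the labels' protocols, libraries were made from polyA RNA with a stranded ligation kit. The submitters' processing notes name bcl2fastq 2.20, cutadapt 1.18, STAR 2.7.0f, Partek and the build mm10, without their roles; whether counting used strand is not given in the sources used here. The authors deposited estimated counts per gene without normalization (32.3% of values not whole at a tolerance of 1e-06, smallest total per gene 10) and a second table of normalized signal values, which the authors scaled per library and which served only as an alternative.

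Estimated counts were rounded and tested with edgeR 4.0.16 (R 4.3.3): filterByExpr, TMM scaling, the robust quasi-likelihood test and Benjamini-Hochberg adjustment over all genes tested, with calls at an adjusted p under 0.05. BCC was compared with Con on the 7 libraries of a model, and differences between models on the 14 libraries of both. CPM use TMM-scaled sizes of all 21 libraries; correlations use log2 CPM with a prior count of 2 over genes with a mean of at least 2. Alternatives were DESeq2 1.42.0, its size factors, no filter on low counts, a replicate block, a joint fit, limma 3.58.1 on log2 of the authors' values plus 1, and leaving out each library. The fits were tested on simulated data.

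The members and lists were chosen with earlier results of these data known. The members were named in every comparison, with up to 4 called genes of largest change per list and model. The headers give each library its own animal name and the labels say no more, so p-values measure the spread between these libraries. Libraries of the same group all differed by more than counting noise (lowest chi-square over its degrees of freedom, 8.33), so none was merged.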

Additional observations from a re-analysis of the deposited data

Results flagged for a closer look

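For 4 members the BCC effect differed between models by the test of the difference itself (edgeR's quasi-likelihood test of the interaction). The difference in log2 fold change of PKI from SmoM2 was -2.85 for Ccn2, -0.81 for Lats2, -0.74 for Tead1 and -0.51 for Ajuba. The difference of PKI from Gnas-eKO was -2.13 for Ccn2 and -1.08 for Lats2. Both contrasts use the same PKI libraries. For Ccn2, the SmoM2 tumours were above their controls and the PKI tumours below theirs in every library. For Lats2 and Ajuba this held too, although neither was called within PKI. For Tead1, SmoM2 BCC and Con did not overlap and PKI BCC and Con did. Model, batch and day after induction are the same split and cannot be told apart in these differences.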

How the results depend on the processing

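Counts of calls moved most in Gnas-eKO. There DESeq2's Wald test called 1535 genes, the joint fit of 21 libraries 2644 genes and 2 members (Lats2 and Amotl2), and the replicate block 135 genes; with 1 library left out, 0 to 1910 genes and 0 to 1 members (1910 and 1 without BCC library 2, 0 genes without Con library 1 or 2). In SmoM2 the joint fit called 3 members and 22.7% of all genes, against 29.7% of all genes in the main fit. For Gnas-eKO against SmoM2, the Wald test called 212 genes, the joint fit 66, and fits without 1 library 14 to 79. For PKI against Gnas-eKO, the Wald test called 2389 genes, the block 925 genes and 1 member, and fits without 1 library 673 to 2512 genes and 0 to 3 members. Causes were not tested.

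The replicate numbers do not pair the libraries: same-numbered deviations correlated at -0.13 to -0.087 in SmoM2, 0.041 to 0.18 in Gnas-eKO and -0.066 to 0.28 in PKI. For the members, calls differed with the block for Ccn2 in PKI (adjusted p = 0.0622), Tead1 in PKI (-0.37, adjusted p = 0.0144), Axl in PKI against SmoM2 (-0.49, adjusted p = 0.0148) and Lats2 in PKI against Gnas-eKO (-0.92, adjusted p = 0.165). The block called 0 genes of the Hippo and target lists in Gnas-eKO (0.823% of all genes) and 4 of 12 immediate early genes in SmoM2 (20.9%). It gave F3 in SmoM2 an adjusted p of 0.0518.

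Signs changed only for values that were not called. With the block they were 0.17 for Ccn1 in SmoM2, -0.075 for Axl in Gnas-eKO, -0.0044 for Wwtr1 in PKI, -0.046 for Tead1 in Gnas-eKO against SmoM2 and 0.18 for Axl in PKI against Gnas-eKO, which was 0.015 without the filter; the authors' values gave 0.056 for Ccn1 in SmoM2. With 1 library left out, ranges were -0.023 to 0.012 for Yap1 and -0.31 to 0.36 for Ccn1 in SmoM2, -0.047 to 0.28 for Axl in Gnas-eKO and -0.034 to 0.15 for Wwtr1 in PKI. For Gnas-eKO against SmoM2 they were -0.15 to 0.18 for Tead1 and -0.22 to 0.11 for Amotl2. For PKI against SmoM2 they were -0.21 to 0.047 for Wwtr1 and -0.30 to 0.014 for Amotl2. For PKI against Gnas-eKO they were -0.26 to 0.073 for Amotl2, -0.15 to 0.18 for Axl and -0.36 to 0.43 for Ccn1. No scaling moved the median of all genes by over 0.1.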

Other observations

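Genes of the actin cytoskeleton and its factor SRF, which respond to force as YAP does, were read from a list of 13, of which 12 were tested. In SmoM2 5 were called higher in BCC and 0 lower, against 16.2% and 13.5% of all genes, and in PKI 9 were higher and 0 lower, against 18.7% and 15.8%. In Gnas-eKO edgeR called 0, with 6 at an unadjusted p under 0.05; DESeq2 called 2 (9.35% of all genes), the joint fit 4 (14.9%), and edgeR called 3 without BCC library 2 (11.8%), against 1.63% of all genes with every library. The median log2 fold change was 0.30, 0.53 and 0.40 in SmoM2, PKI and Gnas-eKO. In PKI the smooth muscle actin Acta2 rose by 3.83 on the log2 scale, from 0.230 to 3.52 CPM on average with Con near the level of 3 counts, and is also the 1 muscle marker tested. The tropomyosin Tpm1 rose by 1.43 in PKI, and in SmoM2 the myosin light chain Myl9 rose by 2.10 and the factor Srf by 0.57. Of the 12, 3 were not called in PKI: Myl9 (means of 1.14 CPM in Con and 1.17 CPM in BCC), Mrtfb (63.7 and 54.7 CPM) and Tagln (0.619 and 0.598 CPM).

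Of 12 immediate early genes, 5 were higher (18.7% of all genes) and 1 (Klf4) lower (15.8%) in PKI, and 0 were higher (16.2%) and 1 (also Klf4) was lower (13.5%) in SmoM2. In SmoM2 DESeq2 called 3 (32.4% of all genes), and with 1 library left out edgeR called 1 to 4. It called 4 without Con library 2 (21.5% of all genes) and 3 without BCC library 3 (26.6%). In Gnas-eKO edgeR called 0, with 5 at an unadjusted p under 0.05; DESeq2 called 4 (9.35% of all genes), the joint fit 3 (14.9%), and edgeR called 5 without BCC library 2 (11.8%). On the log2 scale, Fosl1 rose by 3.26, Egr1 by 1.80, Junb by 1.16 and Ier3 by 0.82 in PKI. With 1 PKI library left out, between 2 (without Con library 2 or 3, at 24.1% and 25% of all genes) and 8 of the 12 were called. All such fits called 24.1% to 33.7% of all genes. The calls of Egr1, Junb and Ier3 were each lost without Con library 2 or 3.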
